A study of Homo sapiens with 8 samples.

Results

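JUN, JUNB and JUND encode the 3 JUN proteins of the AP-1 transcription factor family, and the accessible sites called around these genes by ATAC-seq are described here in G401 cells before and after SMARCB1 was restored. Sites were taken as the peaks within 200 kb of the JUN start site (chr1:59249785, hg19, minus strand), within 50 kb of the JUNB start site (chr19:12902310, plus strand) and within 50 kb of the JUND start site (chr19:18392466, minus strand), measured to the nearest edge of the peak. A peak within 1 kb of the start site was called a promoter peak and the others distal. This gave 208 of the 411408 deposited peaks, which overlap into 60 of 146099 merged regions: 20 regions near JUN, 23 near JUNB and 17 near JUND. Promoter regions were 2 for JUN, 2 for JUNB and 1 for JUND, and the other 55 were distal.

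G401 is a cell line of a renal rhabdoid tumour, a childhood cancer caused by loss of SMARCB1, which is part of the core of SWI/SNF chromatin remodellers. The line used carries a stable, doxycycline-inducible SMARCB1 and was kept in Tet-free serum. Uninduced cells, labelled SMARCB1 -/-, make up day 0, and cells given 1 µg/ml doxycycline for 1, 3 or 7 days, labelled SMARCB1 +/+, make up the induced days, with 2 replicates per day and 8 samples in all. Peaks come as 1 list for each day. The spread between replicates is therefore unknown and no p-value is given, and effects of doxycycline itself cannot be told apart from those of SMARCB1. The labels do not say whether the inducible line is a single clone, nor whether replicates were separate cultures.

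AP-1 is a dimer of basic leucine zipper proteins. JUN proteins pair with each other, with FOS proteins or with ATF proteins, and bind the AP-1 element TGACTCA or the related ATF/CREB element TGACGTCA. JUN is an immediate early gene and a strong activator that also acts on its own promoter. JUNB and JUND share its DNA-binding domain and can oppose or replace it, and JUND is often expressed in resting cells. AP-1 is known to recruit SWI/SNF to enhancers, which is the setting of the study's title. All 3 genes are intronless, so a peak over the start site covers the promoter and the beginning of the only exon.

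The promoter sequences are shown because all 3 start sites lay under a peak on every day, with the summit inside the printed stretch except at JUND on days 3 and 7. Each line gives the 250 bases before the RefSeq start site on the gene's own strand (RefSeq, GRCh38.p14: JUN chr1:58784048-58784297, minus; JUNB chr19:12791236-12791485, plus; JUND chr19:18281623-18281872, minus). These coordinates are of another build than the peaks, and the start sites of the 2 builds were not matched to the base. Capitals mark matches, on either strand, to the AP-1 element TGACTCA, the ATF/CREB element TGACGTCA, the AP-1-like elements TGACATCA and TTACCTCA, the CCAAT box, the GC box GGGCGG and the TATA box TATAAA.
JUN: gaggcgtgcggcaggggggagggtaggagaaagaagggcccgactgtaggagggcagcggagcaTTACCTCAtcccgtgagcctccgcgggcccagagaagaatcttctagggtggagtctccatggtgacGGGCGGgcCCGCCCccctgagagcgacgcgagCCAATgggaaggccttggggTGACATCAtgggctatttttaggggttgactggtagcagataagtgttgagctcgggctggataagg
JUNB: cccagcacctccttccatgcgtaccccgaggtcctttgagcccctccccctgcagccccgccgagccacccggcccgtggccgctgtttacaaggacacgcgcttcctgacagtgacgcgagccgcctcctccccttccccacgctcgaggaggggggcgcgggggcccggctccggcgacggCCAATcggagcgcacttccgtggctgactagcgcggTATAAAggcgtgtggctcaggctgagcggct
JUND: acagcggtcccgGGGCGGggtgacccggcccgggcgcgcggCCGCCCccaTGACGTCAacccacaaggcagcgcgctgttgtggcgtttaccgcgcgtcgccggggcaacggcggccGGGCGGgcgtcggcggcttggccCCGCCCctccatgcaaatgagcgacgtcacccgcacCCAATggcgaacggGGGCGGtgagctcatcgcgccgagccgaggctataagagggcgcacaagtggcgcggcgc

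The JUN promoter held TGACATCA at -67 to -60 and TTACCTCA at -186 to -179, counted from the RefSeq start site. These letters are those of the AP-1-like elements of the human JUN promoter that JUN and ATF2 dimers are known to bind. TGACATCA was found in 2.37% of the 250 base windows of all 35116 promoters in the table and TTACCTCA in 0.644%. JUND held TGACGTCA at -200 to -193, an element present in 1.65% of promoters. JUNB held none of these AP-1 or ATF/CREB letters, but was the only promoter of the 3 with TATAAA (at -31 to -26, found in 10.7% of promoters). TGACTCA was in none of the 3 windows and in 4.2% of all promoters. CCAAT was in all 3 (32.0% of promoters), between -87 and -63. GGGCGG was in JUN 2 times and in JUND 5 times, and in 42.6% of promoters. Base composition differed too, with 62.0% G and C in JUN, 70.8% in JUNB and 74.8% in JUND, against a median of 58.0% over all promoters. A match describes letters and does not show that a factor was bound.

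The 4 lists held 80744, 109876, 117606 and 103182 peaks on days 0, 1, 3 and 7. Summit heights below are the reads at the summit, recovered as whole numbers from the authors' fold and p-value, and a scaled summit is that number divided by the genome-wide background of its list, which was 6.34, 6.04, 6.73 and 6.10 reads. Intervals are 95% intervals of counting error only and do not cover the spread between replicates. The name of the list used for day 0 is not spelled out in the labels, and that list was assigned by elimination, so every day 0 value rests on it.

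All 3 genes had an open promoter before SMARCB1 was restored, and by scaled summit none of the promoters changed beyond counting error afterwards. The region over the JUN start site (chr1:59248985-59250648) held 191, 200, 204 and 188 summit reads in the lists of days 0, 1, 3 and 7. All 4 values lie within a narrow band, with scaled summits of 30.1, 33.1, 30.3 and 30.8. Against day 0 the scaled summit was 1.10 times as high on day 1 (0.897 to 1.35), 1.01 times on day 3 (0.823 to 1.23) and 1.02 times on day 7 (0.832 to 1.26). By the authors' fold, a ratio to the local background, day 7 was at 0.830 of day 0, just below the last of these intervals. By reads the JUN promoter stood at percentile 93.6 of the day 0 list and at 96.9, 97.8 and 96.7 of the lists of days 1, 3 and 7. These ranks also depend on the rest of each list. The median summit of a whole list was 57, 51, 52 and 48 reads on days 0, 1, 3 and 7, and the induced lists were longer. The highest scaled summit of any peak was 44.6, 47.5, 41.9 and 43.3 on these days. A 2-fold rise from day 0 at any of the 3 start sites would have passed all of these.

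At the JUNB start site (chr19:12902064-12902600) the summit held 194, 190, 186 and 181 reads on days 0, 1, 3 and 7. No day stands apart. The scaled summit was 1.03 times that of day 0 on day 1 (0.837 to 1.26), 0.904 times on day 3 (0.735 to 1.11) and 0.970 times on day 7 (0.788 to 1.19). At the JUND start site (chr19:18391913-18393469) the summit held 239, 230, 234 and 223 reads. This was the highest of the 3 promoters on every day, and it lay above percentile 99 of each list by reads, at 99.4 on day 0 and 99.7 on day 3. The ratios to day 0 were 1.01 on day 1 (0.839 to 1.22), 0.923 on day 3 (0.768 to 1.11) and 0.970 on day 7 (0.805 to 1.17).

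**Figure D1:**
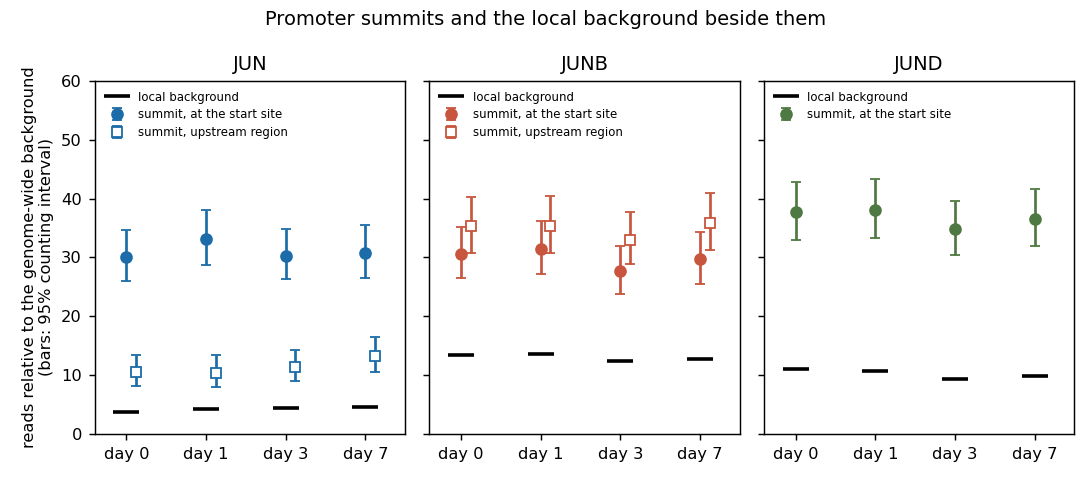
Summit reads over the genome-wide background (vertical axis) by day for the promoter regions of JUN, JUNB and JUND, with 95% counting intervals as bars and the local background at the start site as black dashes. The summits at the start sites lie between 27.7 and 38.1 on all days, while the local background is 3.64 to 4.52 at JUN, 12.3 to 13.7 at JUNB and 9.30 to 11.0 at JUND.

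By summit reads the order of the 3 promoters within a list was JUND first, with JUN and JUNB close together. JUND over JUN was 1.25 on day 0 (1.03 to 1.52), and 1.15, 1.15 and 1.19 on days 1, 3 and 7 with lower bounds of 0.947, 0.947 and 0.973. JUND over JUNB was 1.23, 1.21, 1.26 and 1.23, and its interval reached below 1 on day 1 alone, with a lower bound of 0.995. JUNB over JUN was 1.02, 0.95, 0.912 and 0.963, and each of these 4 intervals included 1. These reads include the local background, and the order depends on the measure. By the authors' fold, a ratio to that background, JUN was first and JUNB last on every day. The day 0 folds were 7.97 at JUN, 3.38 at JUND and 2.27 at JUNB. Gene copy number in this line was not tested.

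A peak covered each of the 3 start sites on every day, and the summit position varied most at JUND. The JUN peak over the start site was 1431, 1429, 1465 and 1664 bp wide on days 0, 1, 3 and 7, with its summit 68, 54, 115 and 87 bp upstream of the start. The JUNB peak was narrower, at 491, 439, 406 and 525 bp, with its summit 77, 67, 61 and 76 bp upstream. The JUND peak was 1433, 1344, 1398 and 1501 bp wide. Its summit lay 184 bp upstream on days 0 and 1 and 297 and 319 bp upstream on days 3 and 7. Shifts of this size inside a peak over 1 kb wide have no error estimate here.

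Upstream of JUN a smaller region (chr1:59250706-59251406), 0.921 kb from the start at its nearest, held 67, 63, 77 and 81 reads on days 0, 1, 3 and 7. The day 7 summit was 1.26 times that of day 0 (0.898 to 1.76). Upstream of JUNB a region (chr19:12900230-12901315) was higher than the start site itself in reads on every day, with 224, 214, 222 and 219. It counted as a promoter region through its day 1 peak alone, whose edge was 995 bp from the start. On days 0, 3 and 7 the edge lay at 1011, 1041 and 1021 bp, just outside the limit. Its ratios to day 0 were 1.00 (0.828 to 1.21), 0.935 (0.773 to 1.13) and 1.02 (0.840 to 1.23) on days 1, 3 and 7.

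The surroundings of the promoters differed more than the summit reads of the promoters did. JUN lies among widely spaced genes (MYSM1 and FGGY are its protein-coding neighbours in RefSeq), while JUNB (between HOOK2 and PRDX2) and JUND (between IQCN and LSM4) lie in gene-dense parts of chromosome 19. Merged regions numbered 5.0 per 100 kb around JUN, 23.0 around JUNB and 17.0 around JUND. The local background, which the authors' caller sets from the reads around a peak, had a day 0 median over member peaks of 1.45 times the genome-wide value near JUN, 9.64 times near JUNB and 6.94 times near JUND, against 2.02 for all peaks of that list. The authors' fold, a ratio to that background, was 7.97, 7.70, 6.80 and 6.61 at the JUN promoter on days 0, 1, 3 and 7. It was 2.27, 2.28, 2.23 and 2.32 at the JUNB promoter, whose reads were nearly the same. The JUNB promoter thus stood at percentile 94.1 of the day 0 list by reads and 7.25 by fold, and JUND at 99.4 by reads and 39.9 by fold. At JUN both ranks were high, at 93.6 and 93.0.

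**Figure D2:**
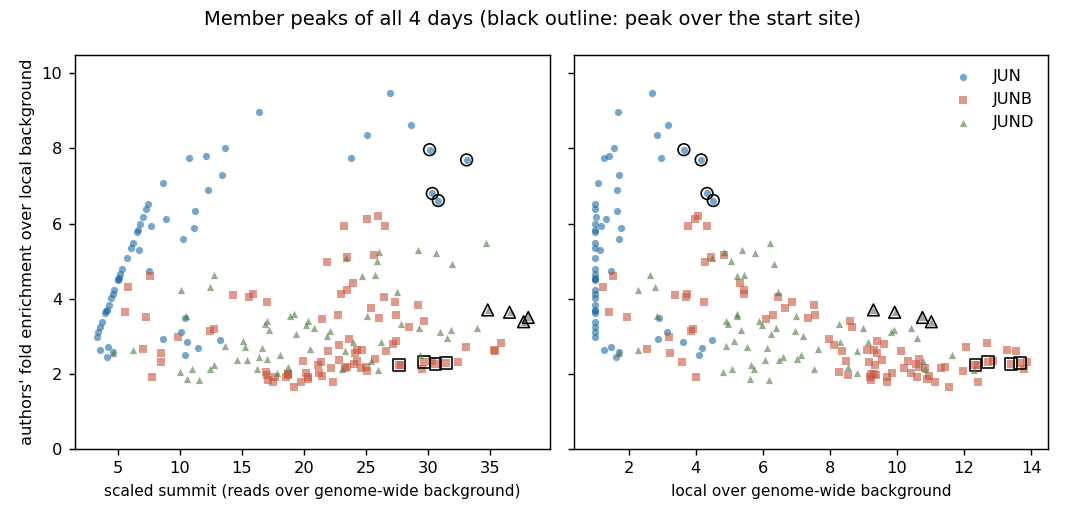
Authors' fold enrichment (vertical axis) of each member peak of the 4 days against its scaled summit (left) and its local over genome-wide background (right), with the peaks over the start sites outlined in black. Most JUNB and JUND peaks lie at a higher local background than the JUN peaks, with folds down to 1.65, while JUN peaks reach 9.47.

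Within 200 kb of JUN more peaks were called on the induced days than on day 0, while the counts within 50 kb of JUNB and JUND stayed within 2 of those of day 0. Within 50 kb of JUN the counts were 5, 5, 6 and 6 on days 0, 1, 3 and 7, so the gain lay beyond 50 kb apart from 1 region. The whole lists were also longer on the induced days. Their genome-wide background, used here to scale for depth, was 0.953, 1.06 and 0.962 times that of day 0 on days 1, 3 and 7. Read numbers of the libraries are not given, and the part of depth in these counts was not tested. Near JUN there were 10, 13, 20 and 15 peaks in the lists of days 0, 1, 3 and 7. Near JUNB there were 20, 22, 22 and 22, and near JUND 17, 15, 16 and 16. Near JUND, 3 pairs of day 0 peaks were single peaks on day 1 and 1 further region was called. Of the 60 regions, 43 had a peak on every day (41.6% of all merged regions did), 16 had no day 0 peak and 1 had a peak on days 0 and 3. No member had a peak on day 0 alone, a class that held 4.26% of all merged regions.

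**Figure D3:**
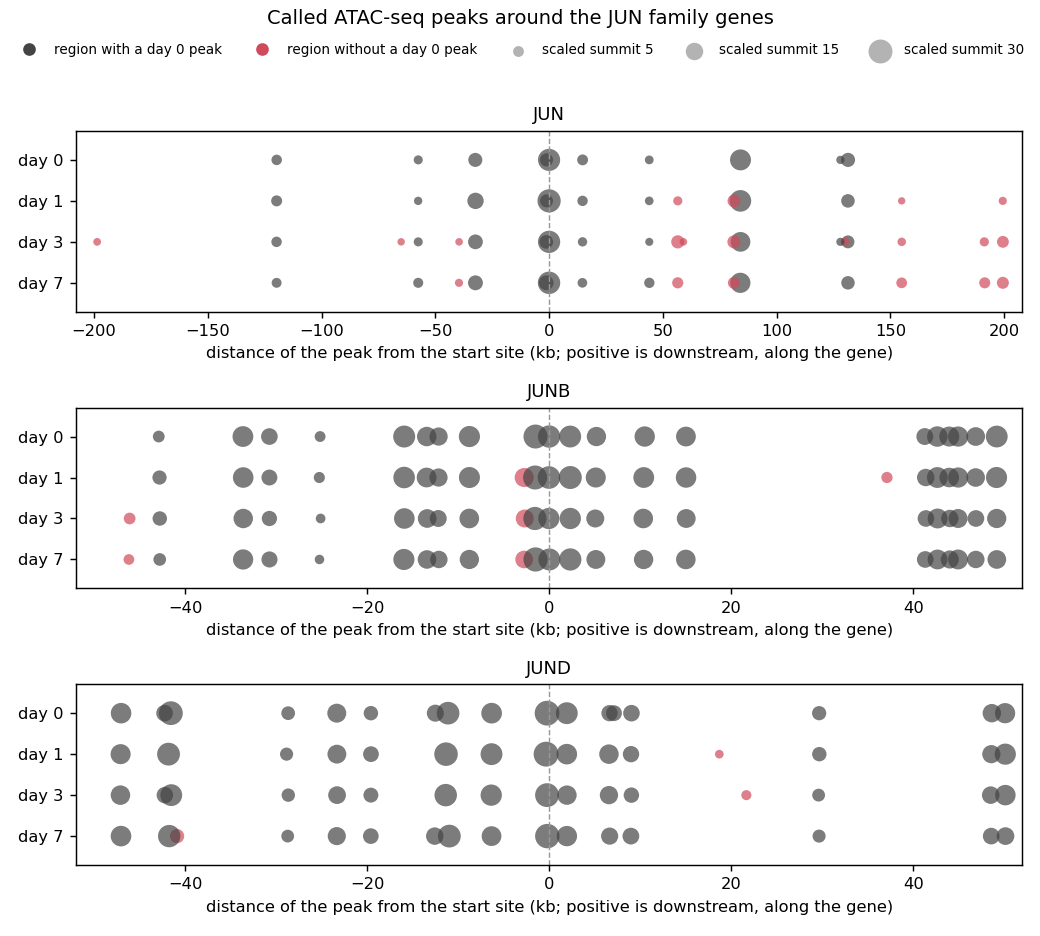
Called peaks by day (rows) at their distance from each start site in kb (horizontal axis, positive is downstream), with symbol area in proportion to the scaled summit and regions without a day 0 peak in red. Of the 20 regions near JUN 10 are red, most of them far from the gene, against 3 of 23 near JUNB and 3 of 17 near JUND.

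Regions without a day 0 peak made up 10 of 20 near JUN (50%, exact interval 27.2 to 72.8), 3 of 23 near JUNB (13.0%, 2.78 to 33.6) and 3 of 17 near JUND (17.6%, 3.80 to 43.4). Over all merged regions the share was 46.2%, so the share near JUN was close to the background. A peak on all 3 induced days and none on day 0 was seen in 13.1% of all merged regions. Near JUN 4 regions had this pattern (20.0%, exact interval 5.73 to 43.7). Near JUNB 1 did (4.35%, 0.110 to 21.9) and near JUND 0 did (0%, 0 to 19.5). Each of these intervals includes 13.1%. The windows differ in width, and within 50 kb of JUN 1 of 6 regions lacked a day 0 peak, while beyond 50 kb 9 of 14 did.

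The 4 regions near JUN with peaks on all 3 induced days all lay downstream of the gene, among 12 distal regions on that side. The region 56.3 kb downstream (chr1:59192923-59193519) held 31 reads on day 1, 72 on day 3 and 47 on day 7. Day 3 was the high day, at 2.09 times day 1 (1.35 to 3.29), and day 7 was at 0.720 of day 3 (0.487 to 1.05). The fold there was 4.54, 7.73 and 5.93, which put it at percentile 93.5 of the day 3 list by fold. The region at 199 kb (chr1:59049963-59050694) held 25, 58 and 54 reads. It also was higher on day 3 than on day 1, by 2.08 times (1.28 to 3.48), and day 7 was at 1.03 of day 3 (0.695 to 1.51). It sits just inside the 200 kb limit. How many of all merged regions rose as much from day 1 to day 3 was not counted.

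The region at 155 kb (chr1:59094579-59095073) held 20, 30 and 43 reads on days 1, 3 and 7. Its day 3 over day 1 ratio of 1.35 (0.741 to 2.50) and its day 7 over day 3 ratio of 1.58 (0.969 to 2.61) both left counting error wide enough to include no change. The region at 80.9 kb (chr1:59168254-59168867) was already at 61 reads on day 1, with 70 on day 3 and 53 on day 7. Its local background was 2.89 times the genome-wide value on day 3, and it lay 2.09 kb from the strongest distal region of the locus, at 83.6 kb. Day 0 peaks with a local background within 10% of that value held at least 36 reads, and those like the region at 56.3 kb at least 20. No call on day 0 therefore leaves room for reads below such values, and no fold against day 0 is given.

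The other 6 regions near JUN without a day 0 peak had no day 1 peak either. A peak on days 3 and 7 was found at 191 kb downstream (chr1:59057919-59058767), with 35 and 46 reads, and at 39.3 kb upstream (chr1:59289121-59289659), with 24 and 25 reads. The remaining 4 had a day 3 peak alone, with 31, 24, 23 and 25 reads at 130 and 58.8 kb downstream and 64.8 and 199 kb upstream. All 10 regions had a day 3 peak, 4 had a day 1 peak and 6 a day 7 peak. The day 3 list was also the longest. Over all lists 67520 merged regions had no day 0 peak. How many of them were called on day 3, or on day 3 alone, was not counted. The smallest summit in any list held 16 to 18 reads, so the weakest of these regions lie near the calling limit. One further weak region, at 128 kb downstream (chr1:59121635-59121871), had 27 reads on day 0 and 28 on day 3 and no peak on days 1 and 7.

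**Figure D4:**
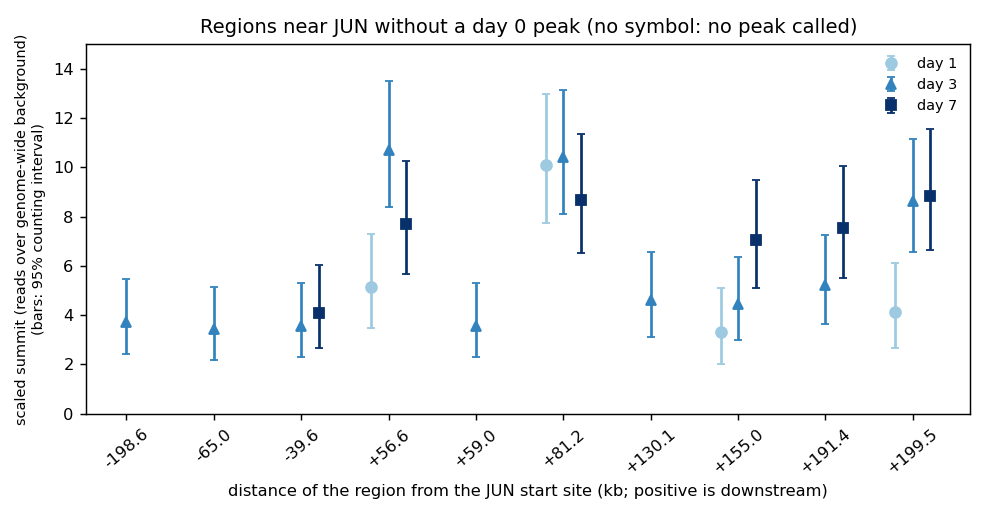
Scaled summit (vertical axis, with 95% counting intervals) on days 1, 3 and 7 of the 10 regions near JUN without a day 0 peak, ordered by distance from the start site. The region at 56.3 kb is highest on day 3 at 10.7, and regions called on day 3 alone lie at 4.61 or below.

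Near JUNB, the region called on all 3 induced days lay 2.52 kb upstream (chr19:12899419-12899786), with 135, 133 and 117 reads on days 1, 3 and 7. These are high counts, but they stand on a local background 12.4 times the genome-wide value on day 1, and the fold was only 1.79, 1.77 and 1.65. Day 0 peaks with a like local background held at least 111 reads. The region's fold ranked at percentile 0.496 of the day 1 list. The other JUNB regions without a day 0 peak were at 45.9 kb upstream, with 57 and 43 reads on days 3 and 7, and at 37.0 kb downstream, with 47 reads on day 1. Near JUND, 3 regions were called on a single induced day each. They held 28 reads on day 1 (18.5 kb downstream), 42 on day 3 (21.5 kb downstream) and 76 on day 7 (40.7 kb upstream). Folds in these 3 were between 2.14 and 2.64.

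Among the 43 regions with a peak on every day, none was at least 2-fold higher or lower than on day 0 on any induced day. Over all 60786 such regions, 3.89%, 4.02% and 2.22% were at least 2-fold higher on days 1, 3 and 7, and 0.00987%, 0.0707% and 0.0625% at least 2-fold lower. A region is in this set only if called on every day, and its reads include the local background. Median day 0 folds of the distal ones were 2.38 near JUNB and 3.13 near JUND. At such folds a 2-fold fall would leave the summit little above that background, where it may not be called. The lack of such falls there was thus partly set by the selection, and a steady background draws ratios toward no change. A 2-fold rise at the highest members would also have passed the highest scaled summit in any list, 47.5. The median log2 ratio to day 0 over the members was 0.00, -0.15 and -0.10, against 0.08, -0.08 and -0.04 over all regions. By gene the medians on days 1, 3 and 7 were -0.02, -0.02 and 0.03 for the 9 JUN regions. They were 0.02, -0.18 and -0.10 for the 20 JUNB regions, of which 19 were lower on day 3 than on day 0, as were 62.2% of all regions. For the 14 JUND regions they were 0.00, -0.13 and -0.13. By the authors' fold in place of reads, the medians on days 1, 3 and 7 were -0.13, -0.22 and -0.16 for JUN, 0.06, 0.05 and 0.08 for JUNB and 0.07, 0.10 and 0.08 for JUND, against 0.07, 0.02 and 0.03 over all regions. The signs for JUNB and JUND on days 3 and 7 and for JUN on day 7 thus turn with the measure, and the shifts have no replicate error.

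**Figure D5:**
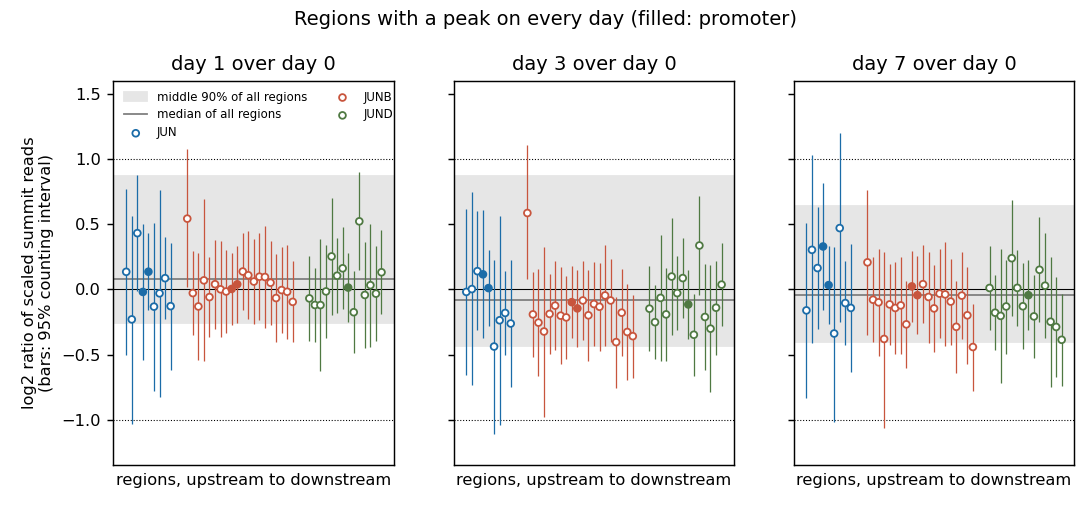
Log2 ratio of the scaled summit to day 0 (vertical axis) on days 1, 3 and 7 for the 43 regions with a peak on every day, ordered from upstream to downstream within each gene, with 95% counting intervals, promoter regions filled, the middle 90% of all 60786 regions in grey and 2-fold changes dotted. The members lie between -0.44 and 0.59, inside the 2-fold lines.

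A counting interval that left out no change was seen in few members. The interval lay above 1 in 2, 1 and 0 of the 43 on days 1, 3 and 7 (10.0%, 8.71% and 5.36% of all regions) and below 1 in 0, 3 and 2 (0.434%, 3.02% and 1.74% of all regions). None of them was near JUN. They are named after their values were seen. The higher ones were a JUNB region 42.5 kb upstream (chr19:12859156-12859850) and a JUND region 5.78 kb downstream (chr19:18385093-18386686). The JUNB region held 54, 75, 86 and 60 reads on days 0, 1, 3 and 7, and its ratio to day 0 was 1.46 on day 1 (1.01 to 2.11), 1.5 on day 3 (1.06 to 2.15) and 1.16 on day 7 (0.786 to 1.70). Its peak was 242 bp wide on day 0 and 695, 586 and 536 bp wide on days 1, 3 and 7.

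The JUND region held 2 separate day 0 peaks, 343 and 370 bp wide, with 103 and 98 reads. On each induced day a single peak joined them, 1593, 1594 and 1427 bp wide with 141, 138 and 110 reads on days 1, 3 and 7. The ratio of the highest summit to day 0 was 1.44 on day 1 (1.11 to 1.87), 1.26 on day 3 (0.972 to 1.65) and 1.11 on day 7 (0.841 to 1.47). The lower ones included a JUNB region 48.9 kb downstream (chr19:12951178-12951772), with 185, 165, 153 and 131 reads on days 0, 1, 3 and 7. The day 3 summit was 0.780 times that of day 0 (0.625 to 0.972), and the day 7 summit 0.736 times (0.584 to 0.926). A JUNB region 43.7 kb downstream (chr19:12945977-12946574) was at 0.756 on day 3 (0.592 to 0.962). A JUND region 1.75 kb downstream (chr19:18390322-18390718) was at 0.786 on day 3 (0.631 to 0.978), and a JUND region 49.4 kb downstream (chr19:18341635-18343091) at 0.765 on day 7 (0.597 to 0.978). With the authors' fold in place of reads, the corresponding ratios were 0.932 and 0.905 for the first of these 4 and 0.883, 0.846 and 1.02 for the others.

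The strongest distal regions were open throughout. Near JUN the highest lay 83.6 kb downstream (chr1:59165155-59166163), with 171, 173, 160 and 153 reads on days 0, 1, 3 and 7 and a day 0 fold of 9.47, the highest fold of any member peak. It was followed by a region 31.9 kb upstream (chr1:59281673-59282615), with 77, 99, 90 and 83 reads, where day 1 was at 1.35 of day 0 (0.992 to 1.84). The next, 131 kb downstream (chr1:59118149-59118676), held 78, 68, 69 and 68 reads. All 7 distal JUN regions with a peak on every day had intervals that included 1 on every day, and the closest to the gene, at 14.5 kb downstream (chr1:59234802-59235327), held 46, 40, 36 and 35 reads.

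Near JUNB, the distal regions with the highest scaled summits lay 1.96 kb downstream (chr19:12904265-12905015), with 187, 196, 187 and 185 reads, 15.5 kb upstream (chr19:12885924-12886808), with 188, 172, 175 and 167 reads, and 48.9 kb downstream, already described. Near JUND they lay 41.1 kb upstream (chr19:18433565-18434936), with 220, 193, 196 and 187 reads, 9.90 kb upstream (chr19:18402364-18405253), with 200, 205, 208 and 194 reads, and 1.75 kb downstream, with 186, 157, 155 and 155 reads. The region 9.90 kb upstream of JUND was the broadest, with peaks up to 2856 bp wide. The median summit of the distal regions open on every day was 46, 45, 45 and 40 reads for the 7 JUN regions on days 0, 1, 3 and 7. It was 154, 150, 145.5 and 132.5 reads for the 18 JUNB regions and 140, 141, 138 and 117 reads for the 13 JUND regions. These reads are not scaled, and the median summit of the whole lists was 57, 51, 52 and 48 reads. By the authors' fold the medians on days 0 and 7 were 6.40 and 5.77 for JUN, 2.38 and 2.68 for JUNB, and 3.13 and 3.17 for JUND.

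The time course most like that of a promoter was sought among the distal regions open on every day, by the Euclidean distance of the log2 ratios to day 0 over the 3 induced days. For JUN the nearest were 119 kb upstream (distance 0.20, with 43, 45, 45 and 37 reads on days 0, 1, 3 and 7), 83.6 kb downstream (0.24) and 31.9 kb upstream (0.35). For JUNB the nearest were 44.7, 14.5 and 42.1 kb downstream, at 0.06, 0.06 and 0.08. For JUND they were 46.6 kb upstream, 22.5 kb upstream and 8.80 kb downstream, at 0.10, 0.12 and 0.13. Each likeness rests on 3 ratios that share the day 0 list. Distances are larger near JUN, where most distal summits hold fewer reads. The search there was also among 7 regions, against 18 for JUNB and 13 for JUND. What sets the distances was not tested. Which gene a distal region belongs to was not analysed here.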

How the data were processed

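ATAC-seq was measured in 8 samples, 2 on each of days 0, 1, 3 and 7, grouped by their titles. The submitters' processing notes name Bowtie2, deepTools, MACS2 version 2.1.1.20160309 and hg19. They give no read filter and do not say whether replicates were pooled. The deposited file joins 4 peak lists. Per peak, the authors deposited a score, a fold (a ratio of the summit to its local background), a -log10 p-value, a -log10 q-value and the summit position.

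Summit reads were recovered from fold and -log10 p, where fold is (reads + 1) / (background + 1) and the p-value is a Poisson upper tail. A whole number matched every peak within 0.000863 in -log10 p, and the next best missed by at least 0.0272. The recovery was tested on simulated data. The genome-wide background of a list is its most common value, shared by 18.5% to 21.0% of its peaks. Lists were merged at an overlap of at least 1 bp, and a region takes its highest summit per day. Intervals at 95% are Clopper-Pearson for shares and exact conditional binomial for ratios. Reads that are copies of 1 molecule would make these too narrow. In the member windows no peak number was missing from any list. Tests across replicates had been planned only for values per sample, which peak lists do not hold.

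The members, lists and windows were chosen with earlier results of these data known. Named regions were all promoter regions, the 3 highest distal ones per gene, those changed at least 2-fold, up to 8 per gene called on all 3 induced days alone, and the 3 with a time course nearest to the promoter. Motif letters in the distal peaks, the other AP-1 genes and the SMARCB1 locus were not analysed here, since the annotation used is of GRCh38. All 3 genes matched the RefSeq tables by symbol. Alternatives were summit distance, a stricter -log10 q limit of 5, a 50 kb window, 50% reciprocal overlap, promoter limits of 500 bp and 2 kb, and 3 other measures of height. Python 3.11.15, NumPy 2.4.6, pandas 2.3.3, SciPy 1.17.1 and matplotlib 3.10.9 were used.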

Additional observations from a re-analysis of the deposited data

How the results depend on the processing

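No paired analysis was possible because the peak lists hold 1 value per day, and replicates could not be left out for the same reason. A 50 kb window for all 3 genes gave 5, 5, 6 and 6 peaks near JUN on days 0, 1, 3 and 7, and 1 region without a day 0 peak. A promoter limit of 500 bp left 1 promoter region each for JUN and JUNB, and a limit of 2 kb gave 2 for JUND. By the authors' fold the log2 ratio of the JUN promoter on day 7 was -0.27, against 0.03 by scaled summits. This lay just outside the counting interval of the scaled summit. The local background there was 4.52 times the genome-wide value on day 7 and 3.64 times on day 0. Summit distance, a stricter q (-log10 of 5) and 50% reciprocal overlap moved no count by over 1.5 times. The stricter q gave 9, 12, 16 and 15 peaks near JUN on days 0, 1, 3 and 7, against 10, 13, 20 and 15. Day 3 thus stood less far above day 7. It also gave 7 regions near JUN without a day 0 peak, against 10. No setting gave a member a change of at least 2-fold. Scaling by the median summit of regions open on every day moved the median of all regions on day 1 to -0.12, against 0.08. With it the JUN, JUNB and JUND medians on day 1 were -0.23, -0.19 and -0.21, so no direction is given for shifts of this size. Weak summits of 20 to 30 reads carry wide counting error.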
